A study of Mus musculus with 125 samples.

Results

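Open chromatin of heart endothelium was compared between adult and P6 mice, in 4 ATAC-seq libraries of the 66 in the series, 2 of each age. ATAC-seq cuts accessible DNA with a transposase, so that open stretches of the genome appear as peaks of tags. The adult mice were 2 months old and had been injected with tamoxifen at 0.015 mg/kg 7 days before nuclei were isolated. The P6 pups had the same dose on postnatal days 1 and 3, and the protocol gives postnatal day 7 for their collection although the group is named P6. In both groups tamoxifen switched on a GFP reporter whose presence in vessels was checked by immunofluorescence, and samples without GFP were not taken further. All groups used here, the controls included, had tamoxifen. The driver and reporter alleles are not given in the sources used here, and how the reporter nuclei were separated is not described there either. Nothing states how many animals went into a library or that libraries came from separate animals, so that p-values measure only the spread between these libraries, which may be technical.

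The other libraries used were 22 endothelial libraries of brain, kidney, liver, lung and retina (10 adult and 12 P6), 11 endothelial libraries of E12 embryos (4 from heart, 7 from brain and trunk), and 3 heart input libraries (1 adult and 2 P6), input being nuclei of unseparated tissue. Embryos were collected at E12.5 from dams given the same dose of tamoxifen. The heart endothelial RNA-seq libraries number 4, 2 of each age.

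The deposited data are lists of peaks, ranked here by the authors' −log10 q-value, the confidence that a peak stands above the local background of its library. The adult lists held 29341 and 32451 peaks on chromosomes 1 to 19 and X, from 24.7 and 20.4 M tags kept (M, mega), and the P6 lists held 76282 and 72069, from 19.3 and 31.3 M. Each list was therefore cut to its 29341 best peaks, the length of the shortest list. At that rank the −log10 q was 1.01 and 2.15 in the adult libraries and 7.95 and 8.31 in the P6 libraries, so the cut kept weak peaks at adult and left out stronger ones at P6. The best peak left out had 2.14 in adult 2, 7.95 in P6 1 and 8.31 in P6 2, and adult 1 lost none. The peaks of the 4 cut lists merged into 41290 regions. A region was called gained when it held a peak in both adult libraries and in neither P6 library, lost when it was the reverse, and shared when it held a peak in all 4. Regions were looked up among the 29341 best peaks of the E12 and heart input libraries and the 19437 best of the other organs' libraries. Unless any rank is stated, no peak in those libraries means none among these best peaks.

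Endothelial cells line the vessels and, as endocardium, the chambers of the heart. In the days after birth the vessels of the heart still grow with the muscle, whereas adult heart capillaries are largely quiescent and carry fatty acids from the blood to cardiomyocytes. Regions of open chromatin away from gene starts are often enhancers, and those at gene starts mark promoters that can be used.

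The libraries carried an endothelial profile. Of 20 general endothelial markers, 19, 19, 20 and 19 had a peak within 5 kb in adult 1, adult 2, P6 1 and P6 2, against 10, 4 and 5 in the adult and the 2 P6 inputs. Of 18 cardiomyocyte markers, 2, 2, 5 and 8 had one, against 13, 17 and 17 in the inputs. The cardiomyocyte count was thus higher at P6 than at adult, and its part in the comparison between ages was not tested. Of 12 leukocyte markers 0 or 1 had a nearby peak (0 in each input), and of 12 fibroblast markers 5 or 6 (4 to 6 in the inputs). Of 12 mural markers 2 to 5 had one, against 5 or 6 in the inputs. Of 12 endocardial markers 6 to 8 had one (6 to 8 in the inputs), and of 8 lymphatic markers 1 to 3 (1 or 2). For fibroblast and endocardial markers the counts were thus like those of whole heart. Among the cardiomyocyte markers, Myh7, Nppa and Ttn had none in the 4 libraries. The myosin gene Myl2 had one in both P6 libraries, and the myosin gene Myh6 in P6 2. Myh7 and Nppa had none in the adult input either.

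Of the 41290 regions, 3430 (8.31%) were gained, 4443 (10.8%) were lost and 19029 (46.1%) were shared. The regions open in both of 2 libraries, as a share of those open in either, came to 0.747 for the adult pair and 0.78 for the P6 pair, against 0.581 to 0.595 for pairs across ages. Replicates of an age were thus more alike than libraries of different ages. With 2 libraries against 2 the smallest p that an exact permutation test can give is 0.333, so no region carries a test of its own.

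Gained and lost regions were looked up in the full lists as well. Of the 4443 lost regions, 4108 (92.5%) had no adult peak at any rank, and the other 335 had one in adult 2 alone, at a median rank of 30712. Of the 3430 gained regions, only 240 (7.0%) had no P6 peak at any rank, and 3190 had a P6 peak below the rank limit. The adult lists hold few peaks below the cut and the P6 lists many, so the lengths of the lists set this contrast.

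The authors' values at the peaks were compared next. In gained regions the median −log10 q was 3.41 and 4.10 in the adult libraries and 5.33 and 5.75 in the P6 libraries that had a peak. In lost regions it was 11.6 and 11.9 at P6. The mean −log10 q of a gained region was higher at P6 in 2228 (65.0%) and higher at adult in 1202 (35.0%), whereas its mean fold over the local background was higher at adult in 2256 (65.8%). By the rule a gained region ranks higher at adult, but in most cases it was not more confidently detected there. When each list was cut to 0.5 times that number of peaks, 1928 regions were gained and 2260 lost, but only 258 (7.52%) of the gained and 652 (14.7%) of the lost regions above were among them. Without any cut, 291 were gained and 31660 lost. Without adult 1 or adult 2, 6673 or 5910 were gained, among them 77.6% and 100% of the 3430. Without adult 1 the lists were also cut at the length of the adult 2 list, which was then the shortest.

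Gained and lost regions lay farther from gene starts than shared ones. The median distance to the nearest start of a protein-coding gene was 19.7 kb for gained, 33.3 kb for lost and 3.02 kb for shared regions, against 14.6 kb for all 41290. Within 500 bp of a start lay 12.4% of the gained, 5.27% of the lost and 43.7% of the shared regions (24.9% of all), and beyond 10 kb lay 63.8%, 76.0% and 40.9% (56.2% of all). Gained regions had a median width of 406 bp, lost regions 543 bp and shared regions 857 bp. For 20.1% of the genes no start is listed and the nearer of the gene's ends was used. The nearest gene is a label of position, and no region was tied to a gene by these data. Exons and introns were not used, so a region is given only as inside or outside a gene's span.

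**Figure D1:**
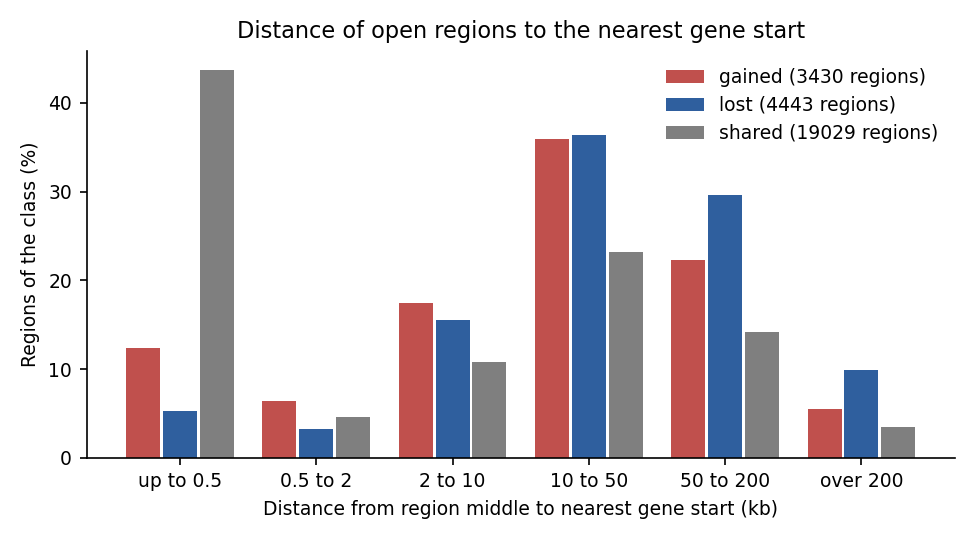
Percent of gained, lost and shared regions in each range of distance from the region's middle to the nearest protein-coding gene start. Shared regions pile up within 500 bp (43.7%), while 63.8% of gained and 76.0% of lost regions lie beyond 10 kb.

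A small share of the gained and lost regions lay at promoters. Of 21020 RefSeq promoters (GRCm38.p6, 250 bases before to 50 after the start), 378 promoters of 345 genes overlapped a gained region and 199 promoters of 187 genes a lost region, against 9017 that overlapped a shared one. Their GC content was 61.8% for gained, 59.0% for lost and 62.0% for shared promoters, against 56.7% for all. The 8 sequences below were chosen after their values were seen, as start sites of members of the gene lists below and of a leading lost region. Each gives the 250 bases before the start, 5′ to 3′ on the gene's strand, in lower case, with every match to a searched motif in capitals. Searched on both strands were the ETS site CCGGAAGT, the AP-1 site TGANTCA, the CRE site TGACGTCA, the KLF site CCCACCC, the GC box GGGCGG, the CCAAT box CCAAT, the E2F site TTTGGCGC, the E-box CACGTG and the glucocorticoid receptor site ACANNNTGT, and neighbouring matches may share bases. The promoters of Cxcl12 (chr6:117168285-117168534), a chemokine that guides leukocytes and coronary vessels, Adm (chr7:110627407-110627656), the vasodilator adrenomedullin, Tgfb1 (chr7:25686752-25687001), a transforming growth factor, and Lipe (chr7:25390113-25390362), the hormone-sensitive lipase, overlapped gained regions:
Cxcl12: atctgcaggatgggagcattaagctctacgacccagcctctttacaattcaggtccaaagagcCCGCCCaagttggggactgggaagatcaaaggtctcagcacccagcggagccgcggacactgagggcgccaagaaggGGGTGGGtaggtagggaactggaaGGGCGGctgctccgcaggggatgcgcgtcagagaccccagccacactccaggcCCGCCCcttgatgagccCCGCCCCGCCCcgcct
Adm: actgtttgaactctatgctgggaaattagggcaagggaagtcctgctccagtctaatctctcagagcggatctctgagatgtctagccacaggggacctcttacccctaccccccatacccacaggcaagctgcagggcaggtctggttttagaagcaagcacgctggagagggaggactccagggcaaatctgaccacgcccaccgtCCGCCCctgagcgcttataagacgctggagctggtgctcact
Tgfb1: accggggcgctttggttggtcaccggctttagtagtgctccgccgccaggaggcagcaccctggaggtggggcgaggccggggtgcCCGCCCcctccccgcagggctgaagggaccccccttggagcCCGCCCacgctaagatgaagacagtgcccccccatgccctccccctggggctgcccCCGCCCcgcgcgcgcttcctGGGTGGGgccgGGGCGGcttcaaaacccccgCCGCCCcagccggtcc
Lipe: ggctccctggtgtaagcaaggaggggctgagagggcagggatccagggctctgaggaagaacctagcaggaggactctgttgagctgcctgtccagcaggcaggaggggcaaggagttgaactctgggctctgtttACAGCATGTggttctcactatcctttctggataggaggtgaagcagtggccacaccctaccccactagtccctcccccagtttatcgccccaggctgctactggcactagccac
The promoters of Peg3 (chr7:6730420-6730669), a paternally expressed zinc-finger gene, Kcnj8 (chr6:142571615-142571864), an ATP-sensitive potassium channel, Fam71f1 (chr6:29318890-29319139) and Igf2bp3 (chr6:49214955-49215204), a fetal RNA-binding protein, overlapped lost regions:
Peg3: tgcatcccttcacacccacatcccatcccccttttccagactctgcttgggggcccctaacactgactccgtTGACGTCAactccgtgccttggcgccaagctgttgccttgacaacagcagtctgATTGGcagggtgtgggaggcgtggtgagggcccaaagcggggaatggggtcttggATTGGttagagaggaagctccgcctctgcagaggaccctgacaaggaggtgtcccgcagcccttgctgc
Kcnj8: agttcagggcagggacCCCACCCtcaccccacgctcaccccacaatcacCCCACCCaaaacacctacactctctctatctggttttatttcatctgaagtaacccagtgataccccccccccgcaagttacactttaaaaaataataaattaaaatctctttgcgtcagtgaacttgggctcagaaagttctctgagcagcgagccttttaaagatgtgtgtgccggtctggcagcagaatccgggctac
Fam71f1: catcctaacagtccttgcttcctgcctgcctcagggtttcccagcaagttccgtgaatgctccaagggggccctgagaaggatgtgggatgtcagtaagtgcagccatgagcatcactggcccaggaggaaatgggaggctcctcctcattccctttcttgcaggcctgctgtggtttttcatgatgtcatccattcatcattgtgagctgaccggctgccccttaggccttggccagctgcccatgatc
Igf2bp3: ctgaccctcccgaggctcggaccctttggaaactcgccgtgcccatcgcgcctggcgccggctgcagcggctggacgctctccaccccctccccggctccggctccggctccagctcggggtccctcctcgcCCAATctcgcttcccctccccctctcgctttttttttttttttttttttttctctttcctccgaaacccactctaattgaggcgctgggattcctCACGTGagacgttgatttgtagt
The Cxcl12 and Tgfb1 promoters held 5 GC boxes each and a KLF site, Adm held 1 GC box, and Lipe held a receptor site. Peg3 held a CRE and 2 CCAAT boxes, Kcnj8 2 KLF sites, Igf2bp3 a CCAAT box and an E-box, and Fam71f1 none of the 9 motifs. Only the end of the Kcnj8 sequence nearest the start, and only the far end of the Igf2bp3 sequence, lay inside the lost region, and the motifs of both lay outside it. The −log10 q at the Adm start was 4.16 and 3.85 at adult and 6.41 and 6.80 at P6, and that at the Lipe start 3.77 and 6.04 against 6.47 and 7.10. At the Tgfb1 start it was 2.33 and 3.32 against 3.17 and 3.41. The values of the 2 ages overlapped at Tgfb1, and at Adm and Lipe both P6 values were the higher.

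Over the whole sets, the ETS site was in 8.99% of gained, 1.51% of lost and 9.90% of shared promoters, against 5.20% of all promoters. ETS factors such as Erg and Fli1 are known regulators of endothelial genes. The AP-1 site was in 4.23% of gained and 7.04% of lost promoters (7.04% of all), the KLF site in 16.9% and 25.1% (18.9%), and the CCAAT box in 25.7% and 39.2% (38.5%). The GC box was in 62.2% and 51.8% (46.6%), the E-box in 10.8% and 8.04% (7.91%) and the CRE in 2.91% and 4.02% (2.26%). The receptor site was in 3.70% and 9.05% (6.03%) and the E2F site in 0.529% and 0% (0.642%). These shares describe letters in a window, with no test, and GC content differed between the sets as given above.

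The strongest gained regions without a P6 peak lay mostly far from gene starts. Of the 12 with the best adult ranks, 11 lay beyond 10 kb of a start, 11 had no peak in an E12 heart library and 4 had one in the adult heart input. Of all gained regions, the shares were 63.8%, 69.4% and 25.9%. The best of the 12 was at chr6:79818185-79818436, inside the predicted gene Gm20594, with −log10 q of 15.6 and 21.3 in the adult libraries. No filter for repeated or artefact-prone sequence was applied here, so whether this peak reflects opened chromatin was not tested. The region at chr1:132791082-132791371, 83.9 kb from Nfasc, a cell adhesion gene of neurons, had 11.2 and 15.1, and that at chr6:117352979-117353451, 185 kb from Cxcl12, had 8.93 and 16. The Cxcl12 region had no peak at any rank in the adult libraries of the other organs and none among the 19437 best peaks of their P6 libraries. The adult heart input also held a peak there. Of the 12, 7 had no peak in the 10 adult libraries of the other organs.

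Other regions of that group of 12 lay near genes of varied function. The region at chr17:73991178-73991824, 41.1 kb from the nearer end of Xdh, which makes uric acid, had −log10 q of 8.90 and 13.2. That near Map3k1, a kinase of the JNK pathway, had 9.94 and 8.63 (chr13:111946764-111947186), and that near Grb10, an imprinted adaptor of insulin signalling, had 5.99 and 8.58 (chr11:12107755-12108308). The others lay nearest to Adgrf1, Tmtc2, Zfp438, Espl1, Calcr and Ric1. The Espl1 region was also open in both P6 heart inputs, the only one of the 12 that was. Without the demand for no P6 peak, a list chosen after seeing the data, the best gained region lay inside Dlc1. Its −log10 q was 18.8 and 20.4 at adult, absent in P6 1 and 3.26 in P6 2 (chr8:36636829-36637515). That near Ugcg, the first enzyme of glycosphingolipid synthesis, had 15.5 and 15.1 at adult and 7.22 and 7.61 at P6 (chr4:59223029-59223575), and a distal region 395 kb from Jag1, a Notch ligand, had 12.9 and 13.3 against 4.39 and 4.19 (chr2:137510791-137511305). At all 3 the adult values were the higher.

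The 12 strongest lost regions were those with the best P6 ranks among lost regions without an adult peak at any rank. They ranked between 354 and 3688 in the P6 libraries. A peak in at least 3 of the 4 E12 heart libraries was found for 10 of the 12, against 45.6% of all lost regions. A region inside Tln2, which links integrins to actin, had −log10 q of 44.7 and 41.4 at P6 (chr9:67565649-67566327). The start of Fam71f1 had 41.9 and 34.2 (chr6:29318795-29319464), and a region near Prokr1, a prokineticin receptor, had 34.3 and 38.2 (chr6:87621219-87621839). Of these 3, the Tln2 region was also held by the adult and both P6 heart inputs and the other 2 by none. The region near Tgfbi, an extracellular matrix protein induced by TGF-beta, had 31.3 and 30.4 (chr13:56581611-56582516), and that 136 kb from Ptprc, the leukocyte antigen CD45, had 31.4 and 34.8 (chr1:138039111-138039583). The other regions lay nearest to Zfp658, Cacna1i, Drd1, Tmem260, Jazf1, 1810013L24Rik and Spats2. The same call was made in another organ for 9 of the 12, while 66.8% of all lost regions were lost in no other organ. No peak in the adult libraries of the other organs was found for 8 of the 12.

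**Figure D2:**
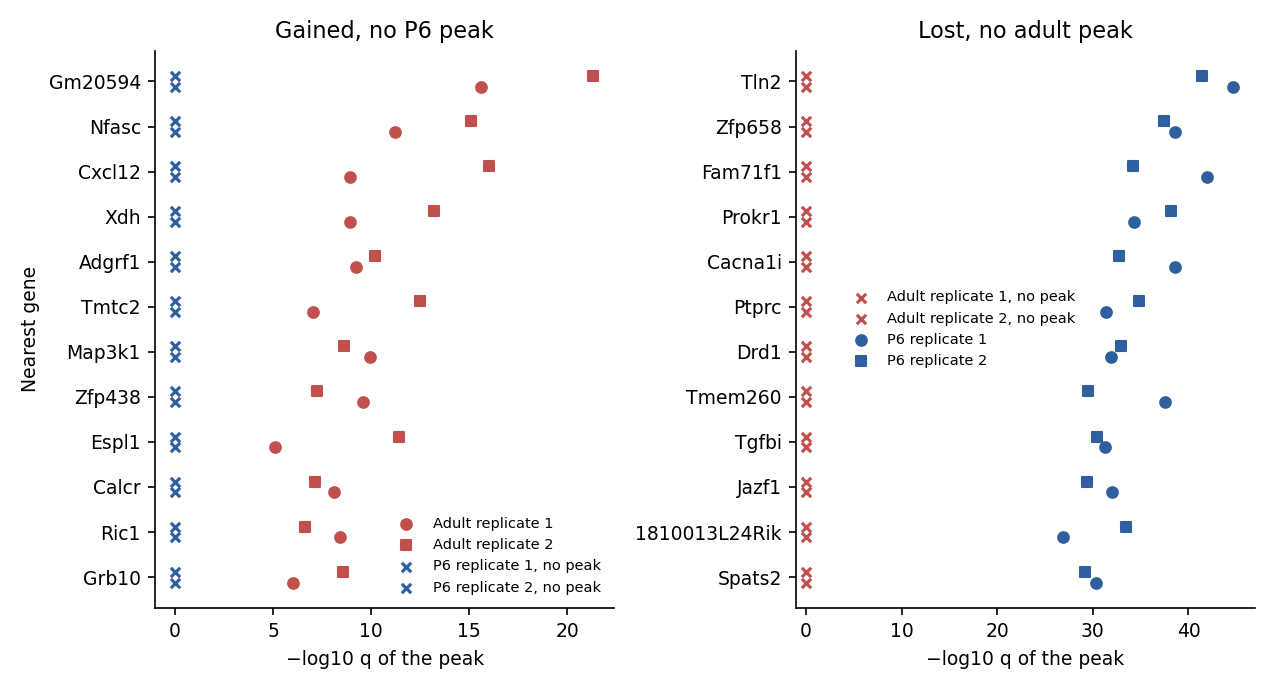
−log10 q of the authors' peak in each heart endothelial library at the 12 best gained regions without a P6 peak and the 12 best lost regions without an adult peak, by nearest gene, with a cross at 0 where a library has no peak. Gained regions reach 21.3 at adult and lost regions 44.7 at P6.

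Some genes gathered many regions. Gm46913 had 10 gained and 0 lost regions, 7 of them inside the span of its neighbour Tbc1d1, a Rab GTPase-activating protein of glucose uptake. Their −log10 q lay between 2.54 and 9.07 at adult and between 3.94 and 8.27 at P6. Dach1, a transcription factor of coronary artery growth, had 8 gained and 0 lost regions, and Rftn1, a lipid raft protein, 8 and 2. Akap6, Prickle1 and Zfp608 had 7 gained each, and 0, 4 and 4 lost. The best Rftn1 region (chr17:50197557-50198073) had 11.0 and 12.4 at adult, no peak in P6 1 and 3.36 in P6 2. Alkbh8 also had 8, but all lay between 299 and 331 kb from it within chr9:3004554-3036333, the first assembled stretch of that chromosome. The adult input held 4 of them, and 6 were called gained in another organ as well. Of all gained regions, the adult input held 25.9%, and 72.1% were called gained in no other organ. Repeated sequence was not filtered out here either.

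Some genes also gathered many lost regions. Efnb2, the arterial ligand ephrin-B2, had 7 lost and 2 gained regions, all 7 at 209 to 1171 kb from its start and none inside it. Their −log10 q at P6 was 8.75 to 16.4. Frmd4a, a polarity scaffold, had 7, all inside the gene, and Nav3, a microtubule-binding protein, 7. With 6 each followed Auts2, Cdyl, Gcnt1, Hmga2, Myc, Rasgef1b, Rbms3, Slc4a3 and Smad3. Hmga2, a chromatin protein of embryonic growth, Smad3, which carries TGF-beta signals, and Gcnt1, a glycosylation enzyme, had 0 gained regions. The 6 Myc regions lay 89.1 to 449 kb from that proliferation gene, and 1 gained region was assigned to it. Of all 21631 protein-coding genes, 2418 (11.2%) had at least 1 gained region and 3207 (14.8%) at least 1 lost region. Longer intergenic stretches collect more regions, which these counts do not correct for.

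Groups of genes with a common role are described by their counts beside those of all genes, with no test of a list. Fetal growth and imprinted genes had more lost than gained regions. Of 62 regions assigned to 16 such genes, 20 (32.3%) were lost and 5 (8.06%) gained, against 10.8% and 8.31% of all regions. A lost region was found at 9 of the 16 genes and a gained one at 4. Of the 20 lost regions, 6 were assigned to Hmga2, 3 each to Igf2bp3 and Igf2, and 2 each to Plagl1 and Igf2r. Mest, Grb10, Peg3 and Igf2bp2 had 1 each. Cdkn1c had 1 gained region and 0 lost, Mest had 2 gained, and Grb10 had 1 gained, without a P6 peak at any rank. The leading lost region lay 3.04 kb from Igf2bp3, with −log10 q of 26.3 and 33.1 at P6 and no adult peak (chr6:49217662-49218334), and a further one lay 0.479 kb from the same start (11.7 and 11.5). All 4 E12 heart libraries were open at both. The best of 6 Hmga2 regions had 21.6 and 23 (chr10:120421895-120422466).

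Of 3 lost regions near Igf2, the fetal growth factor, the best lay 46.2 kb away with 18.4 and 22.1 (chr7:142610757-142611777), was open in all 4 E12 heart libraries, and had no peak in an input. Near Igf2r, which clears that factor, the best lost region had 16.8 and 16.2 (chr17:12791451-12791884), while a gained one had 3.2 and 3.6 at adult against 6.41 and 6.38 at P6 (chr17:12725915-12726229). The Peg3 start had 15.4 and 17.1 at P6, no adult peak, and a peak in both P6 inputs (chr7:6730268-6730666). After regions with a peak in a heart input were left out, 7 genes (43.8%) had a lost and 4 (25.0%) a gained region. Of all genes, 11.0% and 8.02% did.

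Interferon and MHC class I genes had the reverse balance. Of 67 regions at 20 genes, 12 (17.9%) were gained and 1 (1.49%) lost. The best were near Ly6a, the Sca-1 surface antigen, with −log10 q of 3.33 and 9.85 at adult and 7.76 and 4.41 at P6 (chr15:75001587-75001913), and Ly6e, with 4.02 and 6.06 against 4.38 and 2.94 (chr15:74960766-74961153). Adult and P6 values overlapped at both. Further gained regions lay near Irf1, an interferon response factor, and H2-D1, a classical MHC class I heavy chain. The 2 H2-D1 regions had 2.91 to 4.37 at adult and 5.49 to 7.89 at P6, each P6 value above each adult one. A region 24.5 kb from Ly6e had 4.50 and 4.29 at adult and no P6 peak (chr15:74930371-74930756). The lost region lay at Gbp4, an interferon-induced GTPase. In the 12 gained regions 5 were held by the adult input, and 2 had no P6 peak at any rank. Of all gained regions, 25.9% and 7.0% did. More genes had gained than lost regions under 9 of 10 alternatives. Of the 12 gained regions, 3 were assigned to Ly6a, 3 to Ly6e and 2 to Ly6c1, which lie in 1 cluster on chromosome 15. The others were assigned to H2-D1 (2), Irf1 (1) and Tapbp (1), so most of the 12 came from that cluster. Ly6 genes there are similar copies, and reads may be split among them.

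Fatty acid handling genes had 17 gained (13.9%) and 7 lost (5.74%) of 122 regions, at 9 and 6 of 18 genes. Inside Cd36, the fatty acid transporter, 13.9 kb from its start, the region had −log10 q of 9.20 and 11.9 at adult against 4.61 and 7.03 at P6, and both the adult and the P6 inputs were open there (chr5:17849629-17849951). The region 3.10 kb from Fabp4, a fatty acid-binding protein of capillaries, had 8.5 and 8.22 against 5.93 and 5.19 (chr3:10211451-10211980). Close to the start of Pparg, the nuclear receptor that controls both genes, the best of 3 had 8.18 and 7.73 against 6.13 and 5.78 (chr6:115420838-115421364). At these 3 regions each adult value was above each P6 value. Others of the 17 ran the other way, with 1.72 and 2.23 against 6.57 and 5.08 at the start of Angptl4, an inhibitor of lipoprotein lipase, and higher P6 values at the Lipe start as given above. Most of the 17 came from a few genes. Kcna5 had 4 gained regions, Pparg and Sgk1 3 each, and Timp4, a metalloproteinase inhibitor, 2. Cd36, Fabp4, Meox2, Angptl4 and Lipe had 1 each. Sgk1 was also on the list of glucocorticoid and circadian genes. Lost regions lay near Fabp5 (16.9 and 18.2 at P6) and near Slc27a3, Meox2 and Sgk1. Another lay inside Lpl, the lipase that frees fatty acids from lipoproteins (14.1 and 19.3). A further one lay 1.59 kb from the nearest start or end of Fabp4 (9.53 and 9.44 at P6, no adult peak, chr3:10205741-10206134). That point is not the one used for the gained Fabp4 region. Fabp4, Meox2 and Sgk1 thus had regions on both sides. Only 1 gene, Kcna5, had a gained region without a P6 peak at any rank, against 6 genes with a lost region without an adult peak, a contrast that the lengths of the lists set over all genes too.

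Genes of the endothelium itself were found on both sides. General endothelial genes had 20 gained (8.93%) and 9 lost (4.02%) of 224 regions, at 13 and 7 of 20 genes. Around Emcn, the sialomucin endomucin, 3 regions were gained and 3 lost. The best gained one had −log10 q of 5.69 and 9.26 at adult and 3.87 and 5.38 at P6 (chr3:137226201-137226553). Flt1, a receptor that binds VEGF-A, had a gained region inside the gene (7.89 and 5.96 against 5.99 and 4.43) and a lost one (14.0 and 10.4 at P6). Cldn5, a tight junction protein, and Ets1 had gained regions only, and Cdh5, Eng and Erg had a lost region each, with 14.1 and 17.0, 16.9 and 13.8, and 13.9 and 11.2 at P6. Emcn, Flt1, Cdh5 and Eng thus had regions on both sides.

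Tip cell and sprouting genes had 14 gained and 14 lost of 155 regions (9.03% each), at 9 and 9 of 20 genes. The strongest was a lost region 9.49 kb from Apln, the peptide apelin of sprouting vessels, with −log10 q of 30.9 and 31.8 at P6, none in adult 1 and 1.71 in adult 2 (chrX:48043974-48044716). Its receptor gene Aplnr had 2 lost regions, the best with 22.6 and 16.9 at P6, which was called lost in 4 other organs too (chr2:85167527-85168062). A lost region near Vegfa had 17.6 and 19.9, and Cxcr4, the receptor of Cxcl12, had 4 lost regions and a gained one at its start. Gained regions lay at Flt1, Pdgfb, the ligand that recruits pericytes, Kdr, the main VEGF receptor, and Apln.

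Arterial genes had 16 gained (11.3%) and 14 lost (9.93%) of 141 regions, at 8 and 5 of 17 genes, and Notch pathway genes 11 (11.8%) and 9 (9.68%) of 93, at 8 and 5 of 15. These shares lay near those of all regions. Gained regions were assigned to Cxcl12 (0.088 to 322 kb away), Jag1 (395 and 460 kb), Stmn2 (264 kb) and Efnb2 (24.4 and 326 kb). Jag1, Stmn2 and Efnb2 had lost regions as well. The Cxcl12 start had −log10 q of 4.40 and 8.30 at adult against 6.54 and 6.35 at P6 (chr6:117168280-117168967). On the lost side, the regions of Hey2, a Notch target of arteries, had up to 18 and 22.1 (chr10:30979945-30980783) and the best of 3 near Hes1, another target, 22.5 and 17.7 (chr16:29886745-29887147). Hes1 also had a gained region, with 3.67 and 3.46 at adult and no P6 peak. Both of these lost regions were open in all 4 E12 heart libraries. Venous and leukocyte adhesion genes had 7 gained (10.6%) and 10 lost (15.2%) of 66 regions, among them Icam2 on the gained side, Aplnr and Nrp2 on the lost side, and Vcam1 and Vwf on both.

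TGF-beta and BMP genes had 17 gained (10.5%) and 20 lost (12.3%) of 162 regions, at 12 and 7 of 19 genes. Of the 7 genes with a lost region, 5 (Eng, Tgfbr1, Tgfbr2, Tgfbr3 and Id2) had a gained one too. The lost side was led by the ligand Tgfb2, with 5 regions and up to 27.7 and 21.6 (chr1:186425325-186425899, 280 kb away). The transducer Smad3 followed, with 6 regions 35.9 to 120 kb away and up to 21.6 and 15.8 (chr9:63803119-63803700). The gained side held the receptor Acvrl1, close to its start (7.06 and 7.10 at adult against 6.63 and 6.51 at P6, chr15:101128722-101129039), the inhibitory factors Smad6 and Smad7, and the receptor gene Tgfbr2. Basement membrane and matrix genes had 16 gained (11.3%) and 17 lost (12.1%) of 141. Col18a1 had 3 lost regions, the best with 26.6 and 29.9 (chr10:77182670-77183455). Col15a1 had a lost region (18.4 and 19.5 at P6, chr4:47183883-47184703) and a gained one inside the gene (6.48 and 9.83 against 5.24 and 4.84).

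Endocardial genes had 8 gained (10.8%) and 13 lost (17.6%) of 74 regions, at 5 and 8 of 12 genes. The best lost regions lay at the start of Tmem108 (15.0 and 18.1) and near the cardiac transcription factors Tbx20 (13.6 and 19.8, chr9:24848229-24848697), Gata6 and Gata5. Gata6 had 4 lost regions and 1 gained, Nfatc1, a factor of the valve endocardium, 2 and 2, and Npr3, a natriuretic peptide receptor, and Vwf, the clotting factor, 1 lost and 2 gained each. Of the lost regions, 9 of the 13 were open in at least 3 E12 heart libraries, against 45.6% of all lost regions. Plvap, which forms the diaphragms of fenestrated vessels, had a gained region near its listed end (5.99 and 8.40 against 6.69 and 7.96), where the values of the ages overlapped. In each of the 13 lost regions there was no adult peak at any rank, as in 92.5% of all lost regions. These cardiac factors are also used by other heart cells, and 4 of the 13 regions were held by a P6 input. Of all lost regions, 73.2% were held by no P6 input.

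Cell cycle genes had 1 gained (2.70%) and 5 lost (13.5%) of 37 regions, at 1 and 4 of 18 genes. The lost regions lay near E2f8 (20.4 and 22.3 at P6, 1.44 in adult 2 alone), inside the mitotic kinase Cdk1 (16.8 and 21.4), near Mki67, which also had the gained one, and at the start of Aurkb. The Cdk1 region (chr10:69351027-69351454) was called lost in 4 other organs. Shear stress and immediate early genes had 8 gained (6.02%) and 5 lost (3.76%) of 133 regions, glucocorticoid and circadian genes 6 and 6 of 88 (6.82% each) and lymphatic genes 0 and 4 (20.0%) of 20. Klf2, a factor induced by flow, was among those gained (6.44 and 5.25 against 3.30 and 4.99), and Klf6 had 2 gained regions and 3 lost, the best of the latter with 28.4 and 30.9 at P6 and 2.11 in adult 2 (chr13:6108969-6109922).

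The number of list genes with a region moved with the libraries, the ranking and the cut. Ranked by fold, genes with a gained region went from 5 to 15 of 15 for shear stress and immediate early genes, from 3 to 10 of 16 for glucocorticoid and circadian genes and from 3 to 9 of 13 for venous genes, against 11.2% to 17.7% of all genes. Tip cell genes then had 16 with a gained and 7 with a lost region, but 5 and 10 with 0.5 times the peaks. Of all genes, 17.7% had a gained and 19.7% a lost region by fold, and 7.43% and 8.76% with 0.5 times the peaks. Without adult 1, genes with a lost region went from 7 to 14 for TGF-beta and BMP, where 12 had a gained one, from 7 to 13 for general endothelial genes and from 5 to 9 for arterial genes. Of all genes, the share with a lost region then went from 14.8% to 19.1%, and that with a gained one from 11.2% to 18.3%. Without P6 1, 9 arterial genes had a lost and 8 a gained region, as did 19.3% and 13.5% of all genes. Without P6 2, 12 general endothelial genes had a lost and 14 a gained region, and fatty acid handling genes had 9 of each. Of all genes, 19.9% then had a lost and 14.5% a gained region. With 0.5 times the peaks, 5 TGF-beta and BMP genes had a gained and 8 a lost region. With every peak, each list had more genes with a lost than with a gained region, as had all genes (10536 against 267).

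**Figure D3:**
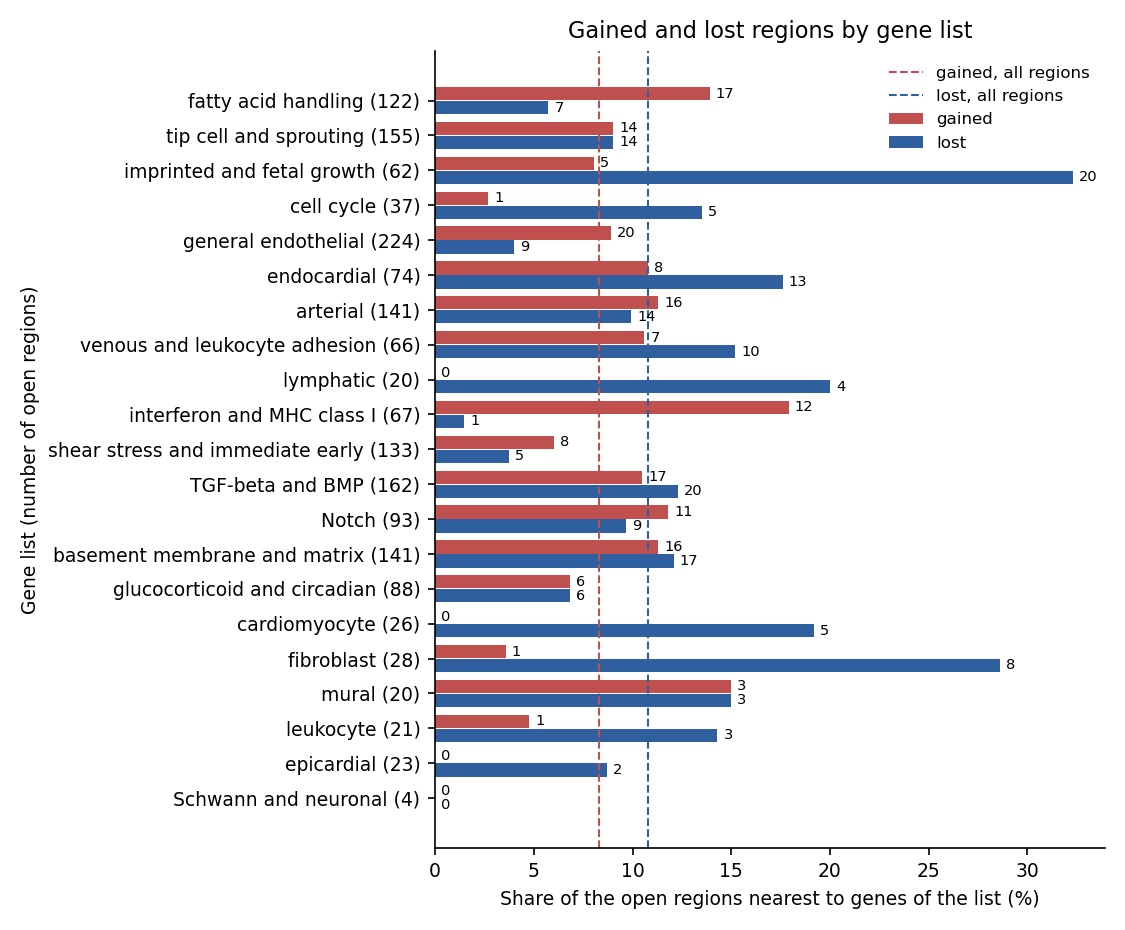
Percent of the regions assigned to each gene list that were gained or lost, with dashed lines at the share over all regions (8.31% gained and 10.8% lost). Imprinted and fetal growth genes reach 32.3% lost, and interferon and MHC class I genes 17.9% gained, the latter mostly from 1 cluster of Ly6 genes.

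Fibroblast and cardiomyocyte markers had more lost than gained regions. Fibroblast markers had 1 gained and 8 lost (28.6%) of 28 regions, with the best lost ones near Tcf21 (23.4 and 24.9) and Pdgfra (21.5 and 16.7). Cardiomyocyte markers had 0 gained and 5 lost (19.2%) of 26, at 3 of 18 genes (16.7%, against 14.8% of all genes), near Tnni1, the fetal troponin I, Tnnt2 and Pln. Mural markers had 3 gained and 3 lost of 20 regions (15.0% each), the latter at Kcnj8, Cnn1 and Tagln, all 3 held by a P6 input. Leukocyte markers had 1 gained (4.76%) and 3 lost (14.3%) of 21, epicardial markers 0 and 2 (8.70%) of 23, and Schwann and neuronal markers 0 and 0 of 4. With every region within 50 kb of a start counted, 6 cardiomyocyte genes (33.3%, against 19.6% of all genes) had a gained region. A lost region was then found at 3 (16.7%, against 20.7%). With 0.5 times the peaks the numbers were 0 and 1 (5.56%), against 7.43% and 8.76% of all genes. Without regions held by a heart input, 3 fibroblast and 3 cardiomyocyte regions remained lost and no mural one. In bulk nuclei, fewer cells of a type and less signal per cell cannot be told apart, and the part of other cell types in the gained and lost regions was not tested.

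The whole-tissue inputs held part of both sets. A peak of the adult heart input lay in 25.9% of gained, 19.7% of lost and 71.4% of shared regions, against 45.4% of all. Peaks of the 2 P6 inputs lay on average in 10.6% of gained and 24.4% of lost regions, against 38.3% of all. The input of the same age thus held more of each set than the input of the other age. In no heart input of either age were 2380 (69.4%) of the gained and 3139 (70.7%) of the lost regions open, against 25.6% of the shared ones.

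Endothelium of the other organs, which had no part in the choice of regions, gave the tests of this comparison. With each list cut to its 19437 best peaks, gained heart regions were open in 18.8% ± 3.03 of cases in adult libraries (SD, n = 10, range 14.9 to 24.4) and in 9.90% ± 2.62 in P6 libraries (n = 12, 6.53 to 13.3). Lost heart regions were open in 10.3% ± 2.90 at adult (6.41 to 15.1) and 19% ± 4.89 at P6 (11.8 to 24.8). Shared regions were open in 65.1% ± 7.01 and 66.0% ± 5.56, less than 1 SD apart. The gained shares of the 2 ages did not overlap, and the lost shares did.

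Averaged over organs, adult minus P6 was 9.06 percentage points for gained regions, −9.56 for lost regions and 18.6 for gained minus lost. Each had an exact 2-sided permutation p of 4.63e-05 with ages exchanged within organs, the smallest that 21600 arrangements can give, and 7.72e-05 after Benjamini-Hochberg adjustment over 5 comparisons. All 5 organs went the same way. In kidney, liver, lung and retina each adult list was shorter than each P6 list, as in heart. The part of list length in these differences was not tested. At both ages of kidney, liver and lung, the shorter list held the higher share of gained regions. In P6 kidney the shorter list (43848 peaks) held 12.7% and the longer (60976) 6.82%. In P6 brain and P6 retina the shortest list held the highest share, 13.1% in brain (27136 peaks) against 8.54 and 8.75%. Only adult brain and adult retina went the other way. In adult brain the longer list (45077) held 18.2% and the shorter (38443) 16.8%, and in adult retina the shares were 17.0% and 16.8%. Lung had the largest differences, 16 points for gained and −15.1 for lost regions, followed by kidney (11.4 and −12.9). Brain (7.35 and −5.59), retina (5.64 and −6.13) and liver (4.96 and −8.13) had smaller ones. The names of the read files were the only sign of how reads were processed. Their endings were the same for both ages in liver, lung and retina. In kidney they differed between ages, and in brain those of P6 1 and P6 2 differed from the adult ones. The part of read processing was not tested.

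The gained result depended on the cut of the other libraries. With every peak of their lists, the P6 lists being longer, the gained share was 12.2 points lower at adult than at P6 (a difference of −12.2, exact permutation p = 0.035). The lost difference and the difference of gained minus lost kept their direction under all 16 alternatives.

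**Figure D4:**
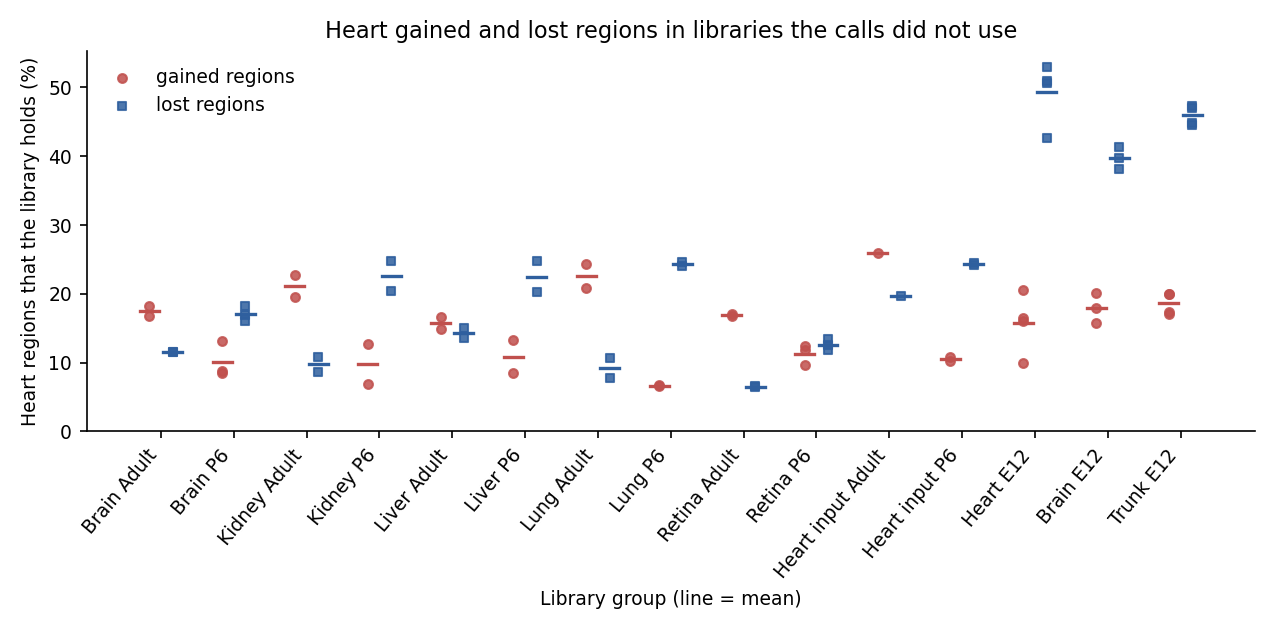
Percent of gained and of lost heart regions with a peak in each endothelial library of other organs and of E12 embryos and in each heart input, 1 point per library with a line at the group mean, at an equal number of top peaks. Adult libraries of the other organs sit between 14.9 and 24.4% for gained regions, above the P6 libraries at 6.53 to 13.3%, and in each of the 5 organs the mean for lost regions is higher at P6.

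When the same rule was applied to each organ, calls of the same direction covered 4.55 to 9.21% of gained heart regions, against 1.54 to 3.86% of all heart regions. For lost regions the shares were 3.38 to 12.2% and 1.58 to 4.99%. In each organ the heart set of the same direction was thus covered more than all regions, while most single regions had the call in heart only. Of the gained, 2473 (72.1%) were called gained in no other organ, 752 in 1, 176 in 2, 22 in 3 and 7 in 4. Of lost regions, 2968 (66.8%) were lost in no other organ, 961 in 1, 362 in 2, 121 in 3, 27 in 4 and 4 in all 5. The opposite call was made in another organ for 170 gained and 142 lost regions. The number of peaks used differed between organs, which limits these counts.

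A smaller set was absent from the endothelium of the other organs at the same age. No peak at any rank in the other organs' endothelial libraries of the same age was found for 625 (18.2%) of the gained and 285 (6.41%) of the lost regions. The other organs' P6 lists are mostly longer than their adult lists, which bears on the difference between these shares. On the gained side the best were assigned to Ugcg, Jag1, Cxcl12, Plcb1, a phospholipase C, and Ptger4, a prostaglandin E receptor, at 33.8 to 395 kb. The adult heart input also held a peak in the Cxcl12 and Ptger4 regions. The Plcb1 region had −log10 q of 11.5 and 12.2 at adult against 4.89 and 8.07 at P6 (chr2:134952016-134952479). On the lost side, regions 28.2 kb from Znrf2 (31.9 and 21.9 at P6) and 280 kb from Tgfb2 were among the best. An input of heart of the same age held 43 of the 625 and 52 of the 285. This selection was added after seeing the data.

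The E12 embryo gave the earlier point in time. Of lost regions 45.6% were open in at least 3 of the 4 E12 heart endothelial libraries and 33.3% in none. For gained regions these shares were 10.2% and 69.4%, and 72.6% of shared regions were open in at least 3. The lost share was 49.3% ± 4.58 (SD, n = 4, 42.6 to 53.0) in E12 heart, near the 51.3% of all regions open there on average, and 43.3% ± 3.57 (n = 7) in E12 brain and trunk. The difference of 5.97 points had an exact permutation p of 0.0424, which became 0.053 after adjustment over 5 comparisons and so did not pass. The gained share was 15.7% ± 4.37 in E12 heart and 18.3% ± 1.73 in E12 brain and trunk, a difference of −2.60 points (exact permutation p = 0.179, adjusted p = 0.179). E12 heart 3 kept 10.1 of 61.3 M tags and stood apart from the other 3. Without it the gained difference was −4.18 points, with an exact permutation p of 0.0333.

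RNA of the same tissue and ages was tested per transcript, since no table used here pairs transcripts with genes. The libraries held 40.4 and 13.8 M estimated counts at adult and 19.4 and 15.0 M at P6. Of 88796 transcripts tested with edgeR, 596 (0.671%) were higher and 755 (0.85%) lower at adult, at an adjusted p under 0.05 with a change of 1 or more on the log2 scale. In the whole-heart input, 94.1% of the higher and 90.5% of the lower transcripts had the same direction. The endothelial mean was above that of the input of the age at which the transcript was high in 39.3% of the higher and 86.8% of the lower transcripts, so many of the higher ones were at least as abundant in whole heart. Normalized counts (CPM, counts scaled to library size) of ENSMUST00000027671.11 were 746 and 395 at adult and 0 and 0 at P6, an at least 5600-fold higher level with the P6 group set to 3 reads (edgeR adjusted p = 0.000174), while the adult input had 1490. ENSMUST00000097785.9 had 140 and 169 at adult and 0 and 0 at P6 (edgeR adjusted p = 0.0443), and 1320 in the adult input. Both were thus more abundant in whole heart. ENSMUST00000107985.9 had 0 and 0 at adult and 123 and 90.6 at P6 (edgeR adjusted p = 0.0306), and ENSMUST00000095083.10 had 0 and 0 against 26.6 and 75.5 (edgeR adjusted p = 0.0272). The P6 inputs had 131 and 243 of the former, and each had more of the latter than either P6 endothelial library, so both of these were more abundant in whole heart too. Of 9 alternatives, the call was lost in 1, 6, 4 and 4 for the 4 transcripts in this order. Without P6 1 only 371 transcripts passed, of which 13.5% were higher at adult, against 44.1% with all libraries. The balance turned without adult 2 (285 higher and 215 lower), with relative log expression factors (1007 and 952), with heart libraries only (2064 and 2049) and with DESeq2 (1509 and 1255). Without a name, no transcript was matched to a region.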

How the data were processed

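Peak lists of 66 ATAC-seq libraries and transcript tables of 54 RNA-seq libraries were deposited, of which the libraries named above were compared. The RNA fit also took in those of the other organs and ages, to share 1 estimate of the spread. The members and gene lists were chosen with earlier results of these data known. Bowtie2, SAMtools 1.13 and Picard with build mm10, and Salmon 1.5.1, are named in the submitters' processing notes. Peaks were called by the authors with MACS2 2.1.2 in each library alone, per the file headers, in broad mode with a shift of -100, an extension of 200, q of 0.05 for strong and 0.1 for broad regions and at most 1 tag per position. The deposited values used are −log10 of the q-value and the fold, the ratio of a peak over its library's local background. The deposited pileup signal, which is not scaled between libraries, and the authors' −log10 of the p-value were not used. The RNA tables hold the authors' estimated counts, which were rounded to whole reads, and the deposited TPM, which were not used.

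Heart and E12 lists were cut to 29341 peaks and the other organs' adult and P6 lists to 19437. Any overlap of 1 bp joined peaks, and each region was named by its nearest RefSeq gene start (GRCm38.p6). Named regions were the 12 best of each direction without a peak of the other age, the genes with most regions (the 5 leading ones and ties), and in each list and direction up to 4 members by mean rank, to which members with regions on the other side or with values that run the other way were added after their values were seen. The start sites printed and the regions of heart alone were chosen after their values were seen. Not every leading region of the latter set is reported here. Adult and P6 were compared over libraries with exact permutation tests. RNA was tested with edgeR 4.0.16 (quasi-likelihood, TMM factors, its filter on low counts, 53 libraries in 28 groups) and, as an alternative, DESeq2 1.42.0. It had been planned per gene and was done per transcript. The 2 RNA libraries of adult heart input were closer than sampling noise allows (chi-square of 0.0981 per degree of freedom) and were counted as 1 sample. On simulated data, edgeR recovered 32.5% of 200 transcripts changed 8-fold, and 2.99% of its calls were false. Python 3.11.15, pandas 2.3.3 and SciPy 1.17.1 were used. Alternatives changed the number of peaks, the ranking, the overlap, the libraries and, for RNA, the scaling, filter, block and tool.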

Additional observations from a re-analysis of the deposited data

How the results depend on the processing

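Counts of gained and lost regions moved with the number of peaks compared. Gained regions numbered 291 with every peak of the heart lists, 1928 with 0.5 times the top peaks, 6333 when ranked by fold, and 4331 to 6673 when a heart library was left out. Lost regions numbered 31660, 2260, 5450 to 6559 without a library, and 7838 when peaks had to cover 50% of a region, an alternative added after seeing the data. Gained regions without a P6 peak numbered 13 with 0.5 times the top peaks and 395 to 1134 without a library. Lost regions without an adult peak numbered 31660, 590, 6462 by fold and 5450 to 6225 without a library. Genes with a gained region numbered 267, 1608, 3824 by fold, 4236 within 50 kb and 2912 to 3966 without a library, and genes with a lost region 10536, 1894, 5093 at 50% cover and 3753 to 4308. The demand for 50% overlap of the shorter interval left the gained and lost counts as they were and gave 246 gained regions without a P6 peak and 4110 lost ones without an adult peak.

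The share of gained regions in the adult input was 6.87% with every peak, 65.2% with 0.5 times the peaks, 30.2% by fold and 15.5 to 32.1% without a library, and in the P6 inputs 1.55%, 41.5%, 9.80% and 7.06 to 17.3%. That of lost regions in the adult input was 15.8%, 30.6%, 23.5%, 34.5% at 50% cover and 18.3 to 21.8%, and in the P6 inputs 19.2%, 33.2%, 28.8%, 35.3% and 22.1 to 26.3%. The other organs' gained difference was reversed, −12.2 points, with every peak of their lists, and the cause was not tested. It kept its direction in the other 15 of 16 alternatives. The E12 gained difference was reversed by fold, 5.09 points (exact permutation p = 0.552), and was −4.18 to −0.654 without a library, past 0.05 without adult 1 or E12 heart 3. With every peak of the E12 lists it was −10.6 points (exact permutation p = 0.152). With 0.5 times the top peaks it was −4.24 (exact permutation p = 0.0848), and with every peak of the heart lists −0.282 (exact permutation p = 0.627). The E12 lost difference of 5.97 points was 5.87 by fold (exact permutation p = 0.0758), 1.26 with every peak of the E12 lists (exact permutation p = 0.915), and 3.62 to 8.20 without a library, not past 0.05 without adult 2, P6 2 or E12 heart 1, 2 or 4. The causes were not tested.

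With the replicate number as a block, 1295 transcripts passed in edgeR against 1351 without it. The labels tie no adult library to a P6 library, and the deviations of same-numbered libraries had a correlation of 0.018 across transcripts, so the numbers were not taken to pair the samples. With heart libraries only 4113 transcripts passed, with DESeq2 2764, and without a library 371 to 619, the highest without P6 2. The 2 other alternatives, relative log expression factors and no filter, gave 1959 and 1110. Adult lists were short although adult and P6 libraries had like tag numbers, and the cause was not tested. A region without an adult peak may be open below detection.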
